A study of Danio rerio with 24 samples.

Results

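Wound matrix glycoproteins and CCN signals are described here through 6 zebrafish genes: tncb (tenascin Cb), fn1a and fn1b (the fibronectin 1 paralogs), sparc (secreted protein acidic and rich in cysteine), ccn1 (also written cyr61) and ccn2a (also written ctgfa). They were chosen by name, with earlier results of these data known. Every probe set that the platform annotation pairs with one of them was taken. This gave 11 probe sets of the 15617 on the array and 6 genes of the 8793 that the array names by 1 symbol. All fish were wild type, and RNA was taken from the tail fin when it was cut (0 h) and 12, 24 and 48 h later. Metabolic memory fish had received streptozocin at 350 mg/kg in 5 injections (day 1, day 3, day 5, day 12 and day 19) and had then been kept for 60 days without the drug. Streptozocin is a toxin of pancreatic beta cells that is used to raise blood glucose, and metabolic memory is the name for effects of a raised glucose that persist after it has returned to normal. Control fish received citrate buffer per the treatment protocol, while the series' design text calls them untreated. Each of the 8 groups (memory at 0, 12, 24 and 48 h, and control at the same 4 times) had 3 arrays. The labels name a triplicate and 15 caudal fins for each time, so fins were pooled. The sources used here do not say whether fish were shared among the 3 samples of 1 group, and p-values therefore measure the spread between these samples, which may be technical. The sources used here give neither age nor sex of the fish.

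A caudal fin that is cut is first closed by epidermis and then grows back from a blastema of proliferating cells under that epidermis. The matrix laid down at the cut differs from that of the intact fin: fibronectin and tenascin C are large glycoproteins of such provisional matrices, fibronectin as an adhesive ligand of integrins and tenascin C as a modulator of that adhesion. SPARC is a secreted, collagen-binding protein of bone and connective tissue. CCN1 and CCN2 are secreted proteins that bind integrins and heparan sulfate and, in mammalian cells, are transcribed rapidly after serum, mechanical load, Yap activity and Tgf-beta.

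Values are log2 signals as deposited, so a difference of 1 is a 2-fold change on the array's scale. Within a group the arrays correlated at 0.989 to 0.998 over all probe sets that were not array controls, no 2 arrays were identical, and the array medians lay between 4.81 and 5.08. The spiked hybridisation controls read 9.53 to 9.93 on the arrays of 0 and 12 h and 9.13 to 9.47 on those of 24 and 48 h, so a difference between array runs cannot be told apart from time in a comparison across those 2 sets. Memory and control arrays of 1 time fall in the same set. The tissue's own markers were present: 19 epidermal genes of 20 listed averaged 10.93 to 11.75 on every array, 7 of 19 fibroblast and connective tissue genes 8.83 to 11.32, and 10 of 14 osteoblast and bone genes 5.5 to 8.64. Fins are a mixture of cells, and fewer cells of a type cannot be told apart from less RNA per cell in these bulk samples. A probe set was tested if it reached a log2 signal of 4 on at least 3 arrays.

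Of the 11 probe sets of the 6 genes, 9 passed this filter, and each gene had at least 1 that did. A gene is represented by its tested probe set with the highest mean over all arrays, and the further tested ones of fn1a and ccn1 are given beside it. The 2 that were not tested, 1 of tncb at 1.60 to 1.80 and 1 of ccn1 at 1.63 to 2.14, reached a signal of 4 on 0 of 24 arrays. A call is an adjusted p under 0.05 in limma's moderated test, with the Benjamini-Hochberg adjustment made over all 10140 tested probe sets. The SE of a difference is the model's, from a spread shared over all 24 arrays. A difference between 2 groups has 3 arrays on each side, an interaction uses 12 arrays, and the average over times uses all 24. Levels of different probe sets are not set against each other, because probes differ in affinity. Where 1 probe set is subtracted from another on an array, only the change of that difference from 0 h is read.

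**Figure D1:**
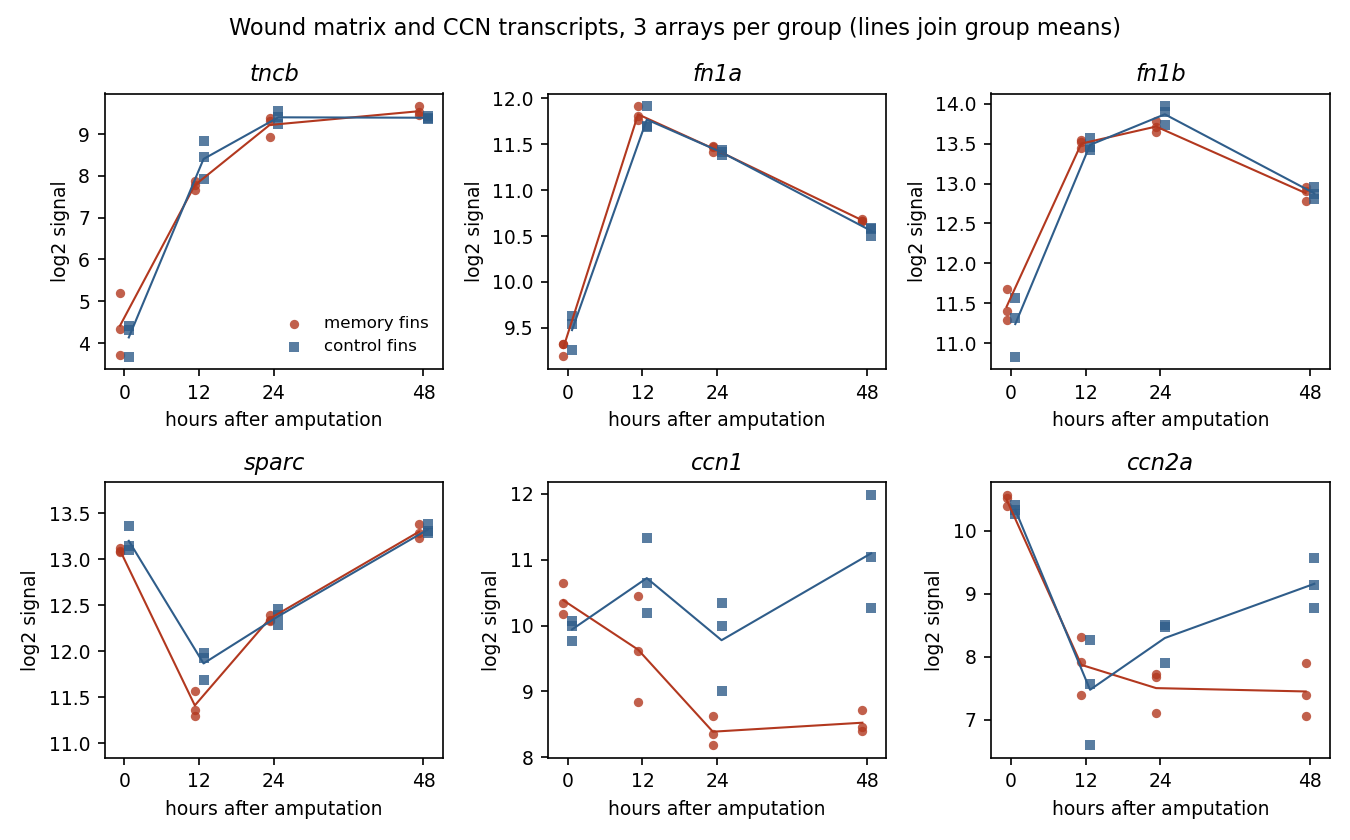
Log2 signal (vertical axis) of tncb, fn1a, fn1b, sparc, ccn1 and ccn2a against hours after amputation (horizontal axis), with 1 point for each array, 3 for each group, and lines through the group means of memory and control fins. The 2 lines run close together for fn1a and fn1b, and for tncb except at 12 h (means 7.78 in memory and 8.41 in control fins). Both dip at 12 h for sparc. For ccn1 the memory line lies below the control line from 12 h on. The lines are farthest apart at 48 h for ccn1 (means 8.52 in memory and 11.10 in control fins) and ccn2a (means 7.45 in memory and 9.16 in control fins).

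Tenascin Cb had the largest change of the 6 genes. In memory fins the tncb probe set read 3.72, 4.33 and 5.20 at 0 h, 7.79, 7.87 and 7.67 after 12 h, 9.32, 8.94 and 9.39 after 24 h, and 9.67, 9.52 and 9.45 after 48 h. In control fins it read 4.41, 3.67 and 4.32 at 0 h, 7.92, 8.45 and 8.84 after 12 h, 9.41, 9.54 and 9.25 after 24 h, and 9.43, 9.38 and 9.36 after 48 h. Every array after amputation lay above every uncut array, and the uncut fins were near the floor of the signals tested. Against 0 h, tncb rose by 3.36 ± 0.27 (SE, adjusted p = 5.67e-10) in the first 12 h, by 4.80 (2.98e-12) in 24 h and by 5.13 (1.19e-12) in 48 h in memory fins, which is 10.3-fold, 27.8-fold and 35.0-fold. The control fins rose by 4.27 (adjusted p = 1.3e-11), 5.27 (5.41e-13) and 5.26 (7.18e-13) at the same times, or 19.3-fold, 38.6-fold and 38.3-fold. Between 12 and 24 h it rose further, by 1.44 in memory fins (adjusted p = 0.000248) and by 1.00 in control fins (0.0122). The control step was 0.76 (adjusted p = 0.0649) without control 12 h replicate 1 and 0.93 (0.0506) without control 24 h replicate 2. The step between 24 and 48 h was 0.33 in memory fins (adjusted p = 0.399) and -0.01 in control fins (0.983), neither past the threshold. In the order of the 8 group means the 3 highest, memory 48 h, control 24 h and control 48 h, each overlapped the next, while control 12 h stood above memory 12 h and both stood clear of the uncut groups.

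Fibronectin 1a rose within 12 h and then declined. Its probe set read 9.33, 9.19 and 9.33 at 0 h, 11.76, 11.91 and 11.80 after 12 h, 11.48, 11.41 and 11.47 after 24 h, and 10.66, 10.66 and 10.69 after 48 h in memory fins. The control fins read 9.63, 9.54 and 9.26 at 0 h, 11.70, 11.91 and 11.69 after 12 h, 11.41, 11.44 and 11.38 after 24 h, and 10.58, 10.59 and 10.50 after 48 h. Arrays of 0, 12, 24 and 48 h did not overlap between times in either arm, and 12 h was highest in both. The rise over 0 h was 2.54 ± 0.09, 2.17 and 1.39 at 12, 24 and 48 h in memory fins (adjusted p = 2.77e-15, 3.62e-14 and 3.65e-11), which is 5.81-fold, 4.50-fold and 2.61-fold. In control fins it was 2.29, 1.93 and 1.08 (adjusted p = 1.13e-14, 1.82e-13 and 1.56e-09), or 4.89-fold, 3.81-fold and 2.11-fold. The declines after 12 h were called too: fn1a fell by 0.37 (adjusted p = 0.00304) and then by 0.78 (1.36e-06) in memory fins, and by 0.36 (0.00787) and then by 0.85 (3.83e-07) in control fins. Without control 12 h replicate 2 the first control step was -0.29 and missed the threshold (adjusted p = 0.0507).

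The array carries fn1a on 2 further tested probe sets with lower signals. On the stronger of these the memory fins read 2.34, 2.78 and 2.95 at 0 h, 5.74, 6.61 and 7.60 after 12 h, 5.65, 5.41 and 5.49 after 24 h, and 4.36, 4.19 and 4.54 after 48 h. On the same probe set the control fins read 3.01, 2.60 and 2.81, then 6.85, 7.06 and 7.09, then 4.55, 4.57 and 5.01, and 4.01, 3.89 and 3.88. Again 12 h was highest. All uncut arrays were under the signal of 4 that the filter asks for, so the size of a change from 0 h is uncertain on this probe set. Against 0 h the fit gave a rise of 3.96 ± 0.28 at 12 h, 2.83 at 24 h and 1.67 at 48 h in memory fins, and of 4.19, 1.90 and 1.12 in control fins. The filter was passed only through cut fins, so calls against 0 h on this probe set are no support and are not given. The weaker one stayed between 3.37 and 4.70 on all arrays. It reached a signal of 4 on 7 of 24 arrays, all of them at 12 or 24 h. It was thus tested only through those times, and its changes from 0 h are given as a description. They were 0.77 ± 0.17 in memory and 0.74 in control fins at 12 h, and 0.51 in memory fins at 24 h. The other changes from 0 h were smaller and not called.

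Fibronectin 1b rose within 12 h, had its highest means at 24 h and declined by 48 h. Its probe set read 11.40, 11.68 and 11.29 at 0 h, 13.44, 13.52 and 13.54 after 12 h, 13.65, 13.78 and 13.71 after 24 h, and 12.78, 12.96 and 12.90 after 48 h in memory fins. The control fins read 11.57, 11.32 and 10.83 at 0 h, 13.57, 13.46 and 13.42 after 12 h, 13.97, 13.90 and 13.73 after 24 h, and 12.80, 12.87 and 12.96 after 48 h. All uncut arrays lay below all later arrays, and the arrays of 24 h lay above those of 12 h within each arm. The rise over 0 h was 2.04 ± 0.14 at 12 h, 2.25 at 24 h and 1.42 at 48 h in memory fins (adjusted p = 3.06e-11, 8.99e-12 and 9.55e-09), or 4.13-fold, 4.77-fold and 2.68-fold. In control fins it was 2.24, 2.62 and 1.64 (adjusted p = 7.26e-12, 6.76e-13 and 1.14e-09), or 4.73-fold, 6.15-fold and 3.11-fold. The step between 12 and 24 h was 0.21 in memory fins (adjusted p = 0.234) and 0.38 in control fins (0.0537), neither called, and between 24 and 48 h fn1b fell by 0.83 in memory fins (8.77e-05) and by 0.99 in control fins (1.01e-05). The control step between 12 and 24 h was called with the stricter filter (0.38, adjusted p = 0.0433), an intensity trend (0.38, 0.0338), quantile normalisation (0.42, 0.0235) and the replicate number as a block (0.38, 0.0474). Taken over all tested probe sets, not for fn1b itself, the deviations of same-numbered arrays of these 2 groups correlated at 0.226, 0.15 and 0.205.

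The paralogs were set against each other through the difference fn1b minus fn1a on each array, and the change of that difference from 0 h, averaged over both arms, was tested by exact permutation of arrays within arms (400 arrangements, smallest possible p = 0.005, two-sided, adjusted over 6 such tests). The unequal change was -0.27 at 12 h (exact p = 0.05, adjusted 0.055), 0.39 at 24 h (0.035, adjusted 0.0525) and 0.30 at 48 h (0.055, adjusted 0.055). None passed after adjustment, though each did under some alternative. In memory fins alone the change was -0.49, 0.08 and 0.04, and in control fins -0.05, 0.69 and 0.56, values that were not tested by arm. Quantile normalisation brought the 24 h value to 0.48 (adjusted p = 0.024) and the 48 h value to 0.46 (0.0225). Without memory 0 h replicate 2, the array with the highest difference of that group, they were 0.47 (0.01) and 0.38 (0.012). The 24 h value also passed without memory 24 h replicate 1 (0.41, adjusted p = 0.0375), and the 12 h value, of the other sign, passed without control 0 h replicate 3 (-0.32, 0.03) or control 12 h replicate 1 (-0.31, 0.03). Only the probe set that represents fn1a was used in this test. The stronger of the further fn1a probe sets rose more than fn1b at 12 h in both arms, from uncut signals under the filter. It was not tested against fn1b.

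SPARC moved the other way from the provisional matrix genes and came back. In memory fins sparc read 13.12, 13.08 and 13.09 at 0 h, 11.57, 11.30 and 11.36 after 12 h, 12.34, 12.39 and 12.33 after 24 h, and 13.38, 13.23 and 13.29 after 48 h. Control fins had 13.36, 13.10 and 13.14 at 0 h, 11.93, 11.69 and 11.98 after 12 h, 12.46, 12.39 and 12.29 after 24 h, and 13.38, 13.28 and 13.31 after 48 h. The lowest arrays were those of 12 h, and the arrays of 24 h lay between them and the uncut fins in both arms. Against 0 h it fell by 1.69 ± 0.09 in memory fins (adjusted p = 2.07e-12) and by 1.33 in control fins (8.67e-11) at 12 h, which left 0.310 and 0.397 of the uncut signal. At 24 h it was lower by 0.74 in memory fins (log2 difference -0.74, adjusted p = 6.03e-07) and by 0.82 in control fins (-0.82, 1.4e-07). At 48 h the difference from 0 h was 0.20 in memory fins (adjusted p = 0.0637) and 0.12 in control fins (0.254), neither called, although quantile normalisation gave a called 0.33 in memory and 0.23 in control fins, and the memory value of 0.20 was called without a filter (adjusted p = 0.0492) and with an intensity trend (0.0289). The steps upward were called in both arms: 0.95 and then 0.95 in memory fins, and 0.51 and then 0.95 in control fins. Over the same times 10 osteoblast and bone genes averaged 8.37 to 8.63 at 0 h, 5.54 to 5.89 at 12 h and 8.57 to 8.64 at 48 h on the memory arrays, and 8.35 to 8.50, 5.5 to 5.93 and 8.42 to 8.59 on the control arrays. Their part in the sparc values was not tested.

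Of the CCN genes, ccn1 had the widest spread among replicates. The memory fins read 10.64, 10.17 and 10.34 at 0 h, 10.45, 9.61 and 8.84 after 12 h, 8.18, 8.35 and 8.63 after 24 h, and 8.71, 8.46 and 8.40 after 48 h. The control fins read 9.76, 9.99 and 10.07 at 0 h, 10.64, 11.33 and 10.19 after 12 h, 10.34, 9.99 and 9.0 after 24 h, and 11.99, 11.04 and 10.26 after 48 h. In memory fins all arrays of 24 and 48 h lay below the uncut ones, while in control fins those of 48 h lay above them and those of 24 h lay on both sides. In memory fins ccn1 differed from 0 h by -0.75 ± 0.40 at 12 h, which was not called (adjusted p = 0.101), and it fell by 2.00 at 24 h (0.000165) and by 1.86 at 48 h (0.000336), to 0.250 and 0.275 of the uncut signal. In control fins the difference was 0.78 at 12 h (adjusted p = 0.091) and -0.17 at 24 h (0.73), neither called, and it rose by 1.16 at 48 h (0.0144), 2.23-fold. Single arrays decide some of these calls. Without control 48 h replicate 1 the control rise at 48 h was 0.71 (adjusted p = 0.123), without control 12 h replicate 3 the control difference at 12 h was 1.04 and called (0.0422), and without memory 12 h replicate 1 the memory difference at 12 h was -1.16 and called (0.0171).

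The steps of ccn1 between neighbouring times were as variable. In memory fins it fell by 1.25 between 12 and 24 h (adjusted p = 0.0176), and the step was -0.84 (0.123) without memory 12 h replicate 1 and -1.15 (0.0589) without memory 24 h replicate 1. The later memory step was 0.14 (adjusted p = 0.844). In control fins the step between 12 and 24 h was -0.94 and not called (adjusted p = 0.105), and between 24 and 48 h ccn1 rose by 1.32 (0.016). That rise was 0.93 without control 24 h replicate 3 and 0.88 without control 48 h replicate 1, and missed the threshold in both cases. The order of the group means ran from control 48 h at 11.10 ± 0.86 (SD, n = 3) through control 12 h at 10.72 ± 0.58 and memory 0 h at 10.38 ± 0.24 to memory 48 h at 8.52 ± 0.17 and memory 24 h at 8.39 ± 0.22. Neighbours in this order overlapped except memory 0 h over control 0 h and memory 12 h over memory 48 h.

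The other tested ccn1 probe set gave a similar course. It read 7.45, 6.88 and 6.71 at 0 h, 7.41, 6.54 and 5.87 after 12 h, 5.05, 4.78 and 4.97 after 24 h, and 5.47, 4.83 and 4.43 after 48 h in memory fins. Control fins read 6.03, 6.83 and 6.68, then 7.27, 7.85 and 6.86, then 6.97, 6.76 and 5.41, and 8.47, 7.32 and 6.65. The memory arrays of 24 and 48 h were again below all uncut memory arrays. In memory fins its change from 0 h was -2.08 ± 0.45 at 24 h (adjusted p = 0.000373) and -2.10 at 48 h (0.000332), both called. The control difference at 48 h, 0.97, was not called on this probe set (adjusted p = 0.0626). Nor was the control step between 24 and 48 h, 1.1 (adjusted p = 0.0703), whereas the memory step between 12 and 24 h was called (-1.68, 0.0057).

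Signals of ccn2a dropped within 12 h in both arms. In memory fins it read 10.52, 10.58 and 10.40 at 0 h, 8.31, 7.91 and 7.39 after 12 h, 7.67, 7.11 and 7.72 after 24 h, and 7.90, 7.39 and 7.05 after 48 h. In control fins it read 10.33, 10.41 and 10.27 at 0 h, 6.59, 8.27 and 7.56 after 12 h, 8.48, 8.51 and 7.90 after 24 h, and 9.57, 9.14 and 8.77 after 48 h. No array after amputation reached the uncut ones, and the control arrays of 48 h lay above all others that were cut. Against 0 h ccn2a fell by 2.63 ± 0.32 at 12 h, 3.00 at 24 h and 3.06 at 48 h in memory fins (adjusted p = 3.14e-07, 5.25e-08 and 3.9e-08), to 0.161, 0.125 and 0.120 of the uncut signal. In control fins it fell by 2.87, 2.04 and 1.18 (adjusted p = 9.51e-08, 9.73e-06 and 0.00276), to 0.137, 0.243 and 0.442. After 12 h the memory steps were -0.37 (adjusted p = 0.382) and -0.06 (0.922). The control steps were 0.82 (0.0763) and 0.86, of which the second was called (0.0467). That call was lost without any 1 of 5 arrays, control 24 h replicates 1, 2 and 3 and control 48 h replicates 1 and 2 (0.66 to 0.97). It was also lost without a filter (0.86, adjusted p = 0.0775), with an intensity trend (0.86, 0.06) and with median centring (0.78, 0.0611). The first control step was 1.22 and called (0.011) without control 12 h replicate 2.

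The pair was compared in the same way as the fibronectins, through ccn1 minus ccn2a on each array. On the memory arrays this difference was 0.11, -0.41 and -0.06 at 0 h, 2.14, 1.69 and 1.45 after 12 h, 0.51, 1.23 and 0.91 after 24 h, and 0.82, 1.07 and 1.35 after 48 h. On the control arrays it was -0.57, -0.43 and -0.19 at 0 h, 4.04, 3.06 and 2.63 after 12 h, 1.85, 1.48 and 1.1 after 24 h, and 2.41, 1.90 and 1.49 after 48 h. All later arrays lay above all uncut arrays. The unequal change from 0 h, averaged over both arms, was 2.76 at 12 h, 1.44 at 24 h and 1.77 at 48 h, each with an exact two-sided p of 0.005, the smallest the design allows, and an adjusted p of 0.01. It was 1.88, 1.00 and 1.2 in memory fins and 3.64, 1.87 and 2.33 in control fins.

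Counted over the 6 genes, the response to amputation can be set beside that of the 6451 genes represented on the array. At 12 h in memory fins 3 of 6 rose (tncb, fn1a and fn1b), 2 fell (ccn2a and sparc) and 1 was not called, where 39.5% of all genes rose and 32.2% fell. At 12 h in control fins the same numbers held, 3 and 2, where 41.6% of all genes rose and 29.0% fell. At 24 h 3 rose and 3 fell in memory fins (42.6% and 28.4% of all genes), and 3 rose and 2 fell in control fins (42.7% and 28.0%). At 48 h 3 rose and 2 fell in memory fins (43.8% and 27.9%), and 4 rose and 1 fell in control fins (43.3% and 27.8%). With most genes of the array called, a count of 5 or 6 called genes is near the background. For the step between 12 and 24 h, 2 rose and 2 fell in memory fins (25.0% and 16.2% of all genes), and 2 rose and 1 fell in control fins (11.6% and 9.70%). For the step between 24 and 48 h, 1 rose and 2 fell in memory fins (15.3% and 12.4%), and 3 rose and 2 fell in control fins (15.9% and 15.8%).

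**Figure D2:**
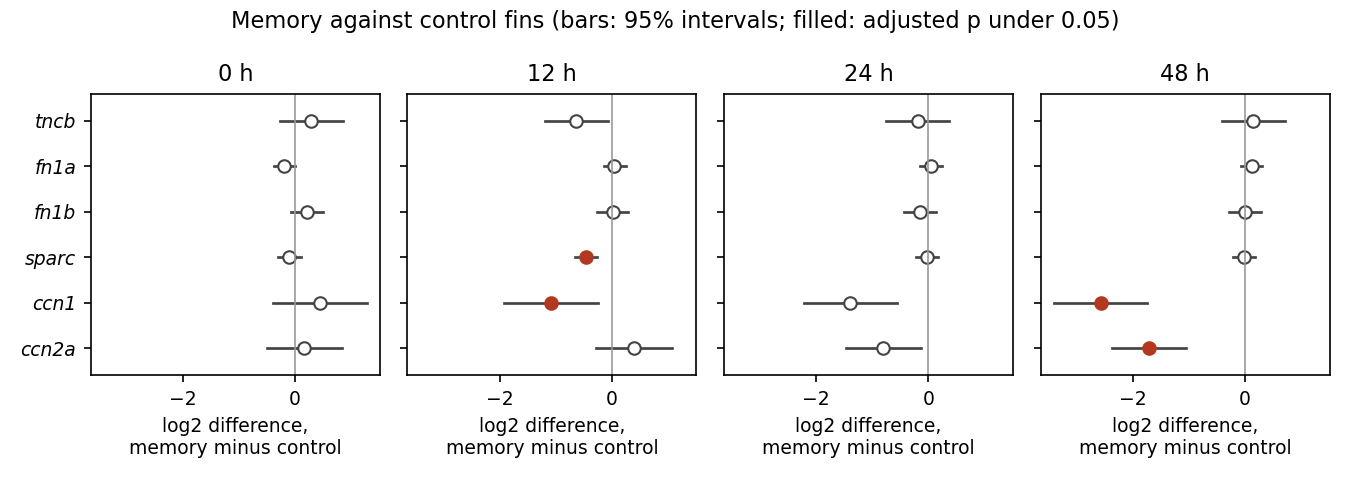
Log2 difference, memory minus control (horizontal axis), for the 6 genes (rows) at 0, 12, 24 and 48 h (panels), with the 95% confidence interval of limma's fit as a line and called differences filled. At 48 h ccn1 lies at -2.57 and ccn2a at -1.71, at 12 h ccn1 lies at -1.08 and sparc at -0.46, and the differences of tncb, fn1a and fn1b are not called at any time.

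Memory and control fins were compared at each time to ask whether the response differs after the drug has been withdrawn. At 0 h 0 of 6 genes were called by limma, with 1, fn1a, at an unadjusted p under 0.05, where 5.95% of all genes were called in either direction. At 12 h 2 of 6 were lower in memory fins (ccn1 and sparc) and 0 were higher, where 23.4% of all genes were lower and 14.2% higher. At 24 h 0 were called, with 2, ccn1 and ccn2a, at an unadjusted p under 0.05, where 3.35% of all genes were called in either direction. At 48 h 2 were lower, ccn1 and ccn2a, where 2.71% of all genes were lower and 2.82% higher, and 4 were not called.

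At 48 h the ccn1 arrays of memory fins, 8.40 to 8.71, lay below those of control fins, 10.26 to 11.99. The difference was -2.57 ± 0.40 (95% CI -3.41 to -1.74, adjusted p = 0.00128), or 0.168 of the control signal, and -2.57 ± 0.45 (adjusted p = 0.00247) on the other probe set. It ran between -2.99 and -2.13 and stayed called when any 1 of the 6 arrays was left out. For ccn2a the memory arrays, 7.05 to 7.90, were also below the control arrays, 8.77 to 9.57, with a difference of -1.71 ± 0.32 (95% CI -2.38 to -1.05, adjusted p = 0.00437), or 0.305 of the control signal. It ran between -1.94 and -1.51 with each array left out and stayed called. On the same arrays 7 fibroblast and connective tissue markers averaged 11.03 to 11.14 in memory and 11.15 to 11.32 in control fins, and 13 blastema and wound epidermis markers 10.32 to 10.49 in memory and 10.12 to 10.60 in control fins. Their part in the ccn1 and ccn2a differences was not tested.

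At the earlier times the CCN genes were less clear. At 12 h ccn1 differed by -1.08 (95% CI -1.92 to -0.25, adjusted p = 0.0397) with overlapping arrays, and was not called on the other probe set (-0.72, adjusted p = 0.23). It missed the threshold without control 12 h replicate 1 (-1.12, adjusted p = 0.0706), control 12 h replicate 2 (-0.78, 0.182), memory 12 h replicate 2 (-1.07, 0.0859) or memory 12 h replicate 3 (-0.69, 0.229). At 24 h the memory arrays, 8.18 to 8.63, lay below the control arrays, 9.0 to 10.34, but the difference of -1.39 (95% CI -2.22 to -0.55) missed the threshold (adjusted p = 0.0592). Without control 24 h replicate 3 it was -1.78 and called (adjusted p = 0.0172). For ccn2a the difference was 0.40 at 12 h (95% CI -0.27 to 1.07, adjusted p = 0.359) and -0.80 at 24 h (-1.47 to -0.13, 0.182). At 0 h neither was called, with 0.45 for ccn1 (95% CI -0.39 to 1.28, adjusted p = 0.581) and 0.17 for ccn2a (-0.50 to 0.84, 0.827). The ccn1 memory arrays of 0 h, 10.17 to 10.64, still lay above the control arrays, 9.76 to 10.07. The fit shares 1 spread over all groups, while the SD of ccn1 was 0.16 in control 0 h and 0.86 in control 48 h. Its intervals may therefore be too wide at 0 h and too narrow at 48 h.

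For sparc the memory arrays at 12 h, 11.30 to 11.57, lay below the control arrays, 11.69 to 11.98. The difference was -0.46 ± 0.09 (95% CI -0.65 to -0.26, adjusted p = 0.000775), or 0.728 of the control signal, and it was called with each of the 6 arrays left out (-0.55 to -0.40). At the other times it was -0.10, -0.02 and -0.02, with adjusted p of 0.603 at 0 h, 0.947 at 24 h and 0.933 at 48 h. On the 12 h arrays fibroblast and connective tissue markers averaged 8.83 to 9.23 in memory and 9.22 to 9.48 in control fins, epidermal markers 11.48 to 11.56 in memory and 11.12 to 11.21 in control fins, and osteoblast markers 5.54 to 5.89 in memory and 5.5 to 5.93 in control fins. The 13 neutrophil and macrophage markers tested of 19 listed averaged 7.69 to 7.81 in memory and 7.47 to 7.55 in control fins at 12 h, and 8.30 to 8.44 in memory and 7.81 to 8.01 in control fins at 0 h. The part of these in the sparc difference was not tested.

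The provisional matrix genes were not called between the arms at any time. For tncb the differences were 0.29 at 0 h (95% CI -0.27 to 0.85), -0.63 at 12 h (-1.19 to -0.07), -0.19 at 24 h (-0.75 to 0.37) and 0.15 at 48 h (-0.41 to 0.72). At 12 h all 3 memory arrays, 7.67 to 7.87, lay below the control arrays, 7.92 to 8.84, and the adjusted p was 0.0742. Without control 12 h replicate 1 the difference was -0.87 and called (adjusted p = 0.0246). For fn1a they were -0.19, 0.05, 0.05 and 0.12 at 0, 12, 24 and 48 h, the widest interval bound being -0.38 at 0 h. The stronger of the further fn1a probe sets gave larger differences at the late times, with the memory arrays above the control arrays and no overlap: 0.81 at 24 h (95% CI 0.22 to 1.39, adjusted p = 0.116) and 0.44 at 48 h (-0.15 to 1.03, 0.393), neither called. For fn1b they were 0.21, 0.02, -0.15 and 0.00, and the 95% interval at 48 h ran from -0.28 to 0.28.

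Whether the memory minus control difference departed from that at 0 h, where 0 of 6 genes were called, was tested as an interaction. At 12 h 0 of 6 genes were called by limma, with 3 at an unadjusted p under 0.05, where 25.0% of all genes were called in either direction. The values were -1.53 ± 0.57 for ccn1 (adjusted p = 0.0557), -0.36 ± 0.13 for sparc (0.0582) and -0.91 ± 0.38 for tncb (0.0876). Leaving out single arrays called each of them: ccn1 without control 12 h replicate 3 (-1.79) or memory 12 h replicate 1 (-1.94), sparc without control 0 h replicate 1 (-0.44), control 12 h replicate 2 (-0.45) or memory 12 h replicate 1 (-0.44), and tncb without memory 0 h replicate 1 (-1.26) or control 12 h replicate 1 (-1.16). The sparc value was also called without a filter, with the stricter filter, with an intensity trend and with quantile normalisation (adjusted p of 0.0247 to 0.0451), though not with median centring. For fn1a the value was 0.25 (adjusted p = 0.175), and it was called without control 0 h replicate 3 (0.36, 0.0347) and with median centring (0.40, 0.0342). At 24 h 0 were called, with 2 at an unadjusted p under 0.05, where 2.62% of all genes were called in either direction. The ccn1 value there was -1.83 (adjusted p = 0.0866), and -2.22 and called without control 24 h replicate 3. At 48 h 2 were lower, ccn1 by -3.02 ± 0.57 (adjusted p = 0.007) and ccn2a by -1.88 ± 0.45 (0.0228), where 2.45% of all genes were lower. The ccn1 value held its call with each of 12 arrays left out (-3.43 to -2.57), and on the other probe set it was -3.07 ± 0.64 (adjusted p = 0.0113). The ccn2a value missed the threshold without control 48 h replicate 1 (-1.68, adjusted p = 0.067), control 48 h replicate 2 (-1.89, 0.0523), memory 48 h replicate 2 (-1.85, 0.0576) or memory 48 h replicate 3 (-1.68, 0.0602).

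Averaged over the 4 times, 3 of 6 genes were lower in memory fins, where 18.2% of all genes were. They were ccn1 by -1.15 ± 0.20 (adjusted p = 0.000265), ccn2a by -0.49 ± 0.16 (0.0251) and sparc by -0.15 ± 0.05 (0.0196). These averages do not describe each time. The ccn2a difference was 0.17 at 0 h and 0.40 at 12 h, then -0.80 at 24 h and -1.71 at 48 h. At 0 h the ccn1 difference was 0.45, and sparc was called at 12 h only. The ccn2a average was -0.43 (adjusted p = 0.0511) without memory 12 h replicate 3. For tncb it was -0.09 (95% CI -0.37 to 0.19), for fn1a 0.01 (-0.09 to 0.10) and for fn1b 0.02 (-0.12 to 0.16).

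The 6 genes differed in how much replicates of a group scattered. The SD of the residuals from the group means was 0.36 for tncb, 0.09 for fn1a, 0.17 for fn1b, 0.10 for sparc, 0.54 for ccn1 and 0.43 for ccn2a, against a median of 0.17 over all represented genes. The share of genes with a smaller one was 99.1% for ccn1, 97.6% for ccn2a and 95.1% for tncb, but 7.8% for fn1a and 10.6% for sparc. The deviations of ccn1 and ccn2a ran together, but other genes ran closer with each of them. At rank 15 in closeness, r was still 0.83 with ccn1 and 0.72 with ccn2a. Over the 24 arrays the deviations of ccn1 and ccn2a from their group means correlated with Pearson's r = 0.68 (permutation within groups, 100000 resamples, p = 0.00688) and Spearman's rho = 0.67 (permutation p = 0.00604), and with r = 0.62 without the 2 arrays farthest from the median of ccn1. No other pair was tested in this way, but this pair was chosen with earlier results of these data known. The p-values are not adjusted for that choice. The permutation treats groups as independent, while same-numbered arrays of some control groups deviated together over all tested probe sets. Between control 12 h and control 48 h those correlations were 0.37, 0.154 and 0.326. Pearson's r of ccn1 and ccn2a was 0.62 over the 12 arrays of 0 and 12 h and 0.76 over the 12 of 24 and 48 h. The 3 arrays stood in the same order for both genes in 3 of 8 groups.

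**Figure D3:**
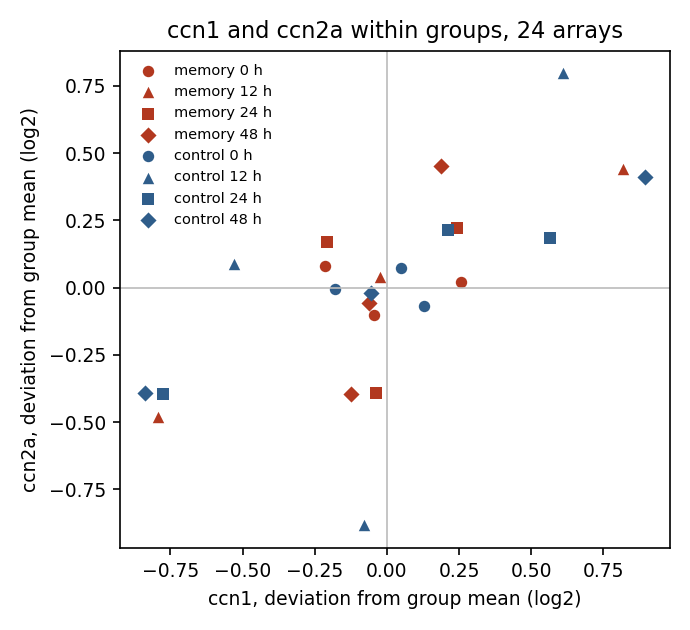
Deviation of each of the 24 arrays from its group mean (log2) for ccn1 (horizontal axis) and ccn2a (vertical axis), coloured by memory and control and with a marker for each time. Arrays high for ccn1 within their group tended to be high for ccn2a (r = 0.68).

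Genes whose deviations ran closest with those of ccn1 were looked for after its values had been seen, and are given as a description. The closest 10 were cebpb, nppc, cebpd, ptgs2a, nr4a1, spry4, zfp36l1a, btg2, plk3 and foxc1b, at r of 0.85 to 0.92 over the 24 arrays. Several of them, such as the nuclear receptor nr4a1, the antiproliferative factor btg2 and the prostaglandin synthase ptgs2a, are known as rapidly induced transcripts. At 48 h the memory minus control differences of the 10 ran from -2.64 to -0.01, the latter for zfp36l1a, which was not called. Of the 10, 6 were called, where 2.71% of all genes were called lower. The 10 were picked on these same arrays for their likeness to ccn1, so this count is not a test against all genes. The largest differences among the 10 were those of nr4a1 and btg2, which are given here. For nr4a1 the signals at 48 h were 5.40, 4.46 and 4.66 in memory fins and 8.24, 7.73 and 6.48 in control fins (-2.64 ± 0.56, adjusted p = 0.00913). For btg2 they were 8.05, 7.57 and 7.44 in memory fins and 10.41, 9.63 and 9.40 in control fins (-2.13 ± 0.42, adjusted p = 0.0063). Their part in the ccn1 difference at 48 h was not tested.

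**Figure D4:**
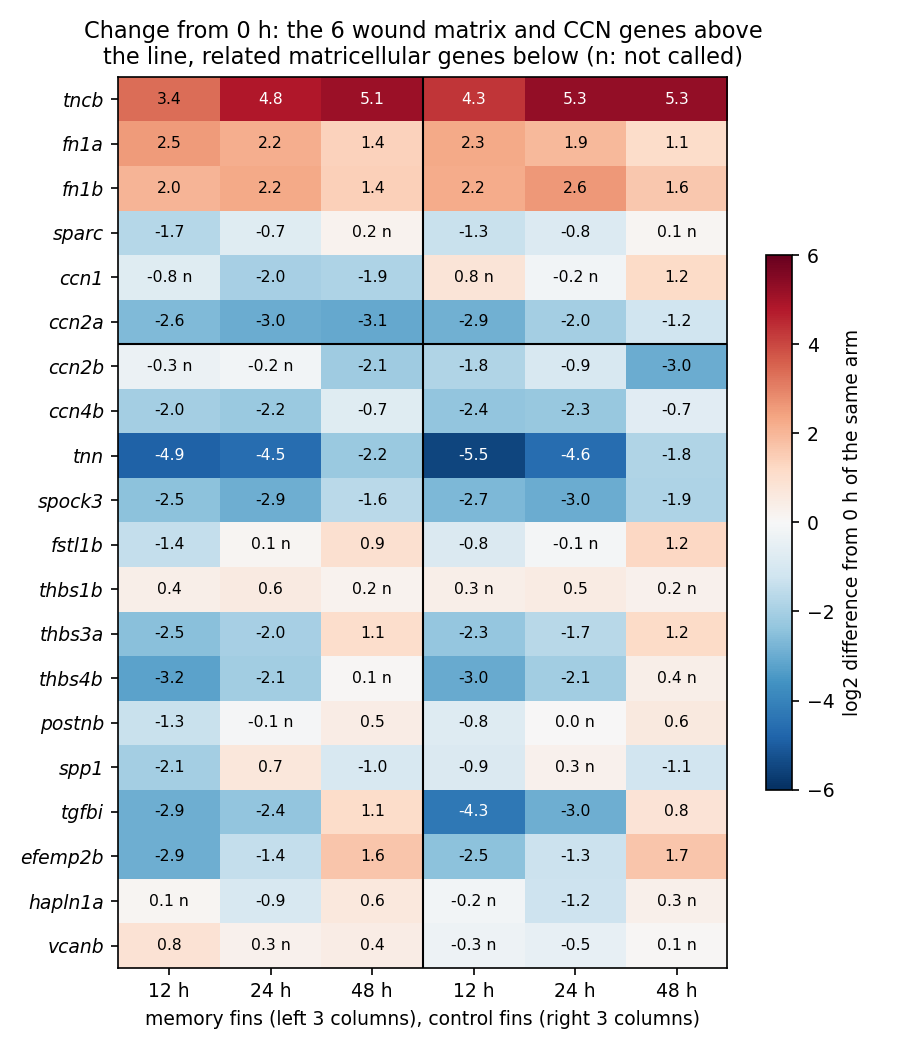
Log2 change from 0 h (colour and printed value) at 12, 24 and 48 h in memory fins (left columns) and control fins (right columns) for the 6 genes, above the line, and for the tested CCN, tenascin, SPARC and other matricellular genes, below it. The letter n marks changes that were not called. The tenascin gene tnn, at -4.87 in memory and -5.49 in control fins at 12 h, is opposite in sign to tncb, at 3.36 and 4.27.

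Other members of the same families did not share one course. Of 8 further CCN genes listed, 2 were named on the array, and both were tested. In memory fins ccn2b, the paralog of ccn2a, differed from 0 h by -0.33 at 12 h (adjusted p = 0.303) and -0.18 at 24 h (0.578) and fell by 2.13 at 48 h (7.86e-07). In control fins its changes were -1.79, -0.94 and -2.96, all called (adjusted p = 7.52e-06, 0.00503 and 6.55e-09). The memory effect on ccn2b at 12 h exceeded that at 0 h by 1.46 ± 0.39 (adjusted p = 0.0101), while memory and control fins were not called apart at any single time. The memory minus control difference was -0.85 at 0 h (adjusted p = 0.0735) and 0.61 at 12 h (0.0914), so the uncut fins account for a large part of this value. The other, ccn4b, of the WISP1 branch of the family, fell by 2.03, 2.25 and 0.72 in memory fins and by 2.37, 2.28 and 0.66 in control fins, all called, and did not differ beyond the threshold between the arms. At 48 h the memory minus control difference was -0.02 ± 0.28 for ccn2b (adjusted p = 0.982) and -0.19 ± 0.14 for ccn4b (0.449).

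The list of tenascin, SPARC and other matricellular genes held 40 names, of which 12 were tested. At 12 h 2 rose and 9 fell in memory fins (median log2 change -2.27, against 0.07 over all genes), and 0 rose and 9 fell in control fins (-1.60, against 0.13), where 39.5% of all genes rose and 32.2% fell in memory fins and 41.6% rose and 29.0% fell in control fins. At 24 h 2 rose and 7 fell in memory fins (-1.18), and 1 rose and 8 fell in control fins (-1.26), each against 0.15 over all genes. At 48 h 7 rose and 3 fell in memory fins (0.45, against 0.18), and 5 rose and 3 fell in control fins (0.34, against 0.16). Over all genes 42.6% rose and 28.4% fell at 24 h in memory fins, and 42.7% and 28.0% in control fins. The shares at 48 h were 43.8% and 27.9% in memory fins and 43.3% and 27.8% in control fins. The control counts at 48 h are thus near the background. The tenascin gene tnn fell by 4.87 ± 0.27 at 12 h in memory fins (adjusted p = 1.4e-12) and by 5.49 in control fins (2e-13). Expressed as the same kind of change, tgfbi, a collagen-binding adhesion protein induced by Tgf-beta, was lower by 2.91 at 12 h in memory fins (log2 difference -2.91) and by 4.31 in control fins (-4.31), and it was higher than at 0 h at 48 h in both (1.08 in memory and 0.83 in control fins). At 12 h memory and control fins were called apart for 5 of the 12: tgfbi (1.05 ± 0.13, adjusted p = 5.19e-06) and vcanb, a hyaluronan-binding proteoglycan (1.00), were higher in memory fins, and spp1, or osteopontin (-0.82), postnb, or periostin (-0.61), and fstl1b (-0.60) were lower. With 14.2% of all genes higher and 23.4% lower at that time, 5 of 12 is near the background. At 48 h, where ccn1 and ccn2a differed, 0 of these 12 were called by limma and 2 had an unadjusted p under 0.05. Over all genes 2.82% were higher and 2.71% lower in memory fins at that time.

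Receptors for these proteins were represented by 11 tested genes of 32 listed integrins, other receptors and adhesion proteins. At 12 h 7 rose and 1 fell in memory fins (median 0.79, against 0.07 over all genes), and 5 rose and 3 fell in control fins (0.18, against 0.13). Over all genes 39.5% rose and 32.2% fell in memory fins and 41.6% rose and 29.0% fell in control fins, so the control counts are near the background. The fibronectin receptor subunit itga5 rose by 1.87 ± 0.19, 2.02 and 2.16 at 12, 24 and 48 h in memory fins and by 1.76, 1.96 and 1.32 in control fins. Talin 2a (tln2a), which links integrins to actin, rose by 3.67 ± 0.15, 4.36 and 2.91 in memory fins and by 4.66, 4.65 and 2.93 in control fins. The focal adhesion kinase gene ptk2aa rose by 3.33 ± 0.17, 1.90 and 0.93 in memory fins and by 3.01, 2.5 and 1.44 in control fins. At 48 h itga5 was higher in memory than in control fins by 0.84 ± 0.19 (adjusted p = 0.0128), the 1 gene of the 11 called between the arms at that time, where 2.82% of all genes were higher.

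Of 41 listed genes of Tgf-beta and Yap signalling, which in mammalian cells control CCN transcription, 15 were tested. At 48 h 6 rose and 8 fell in memory fins (median -0.50, against 0.18 over all genes), and 5 rose and 7 fell in control fins (-0.10, against 0.16), where 43.8% of all genes rose and 27.9% fell in memory fins and 43.3% and 27.8% in control fins. The activin subunit inhbaa rose by 4.19 ± 0.16, 2.61 and 1.38 at 12, 24 and 48 h in memory fins and by 3.69, 3.43 and 1.58 in control fins. The change of yap1 from 0 h was not called at any time in either arm (-0.02, 0.32 and 0.02 in memory fins and -0.31, -0.02 and -0.10 in control fins). At 48 h 2 of the 15 were called between the arms, 1 in each direction: mrtfab, a coactivator of serum response factor, was higher in memory fins by 0.61 ± 0.16 (adjusted p = 0.0269), and tgm2b, a transglutaminase that crosslinks matrix proteins, was lower by 0.67 (log2 difference -0.67 ± 0.17, adjusted p = 0.0255). Over all genes 2.82% were higher and 2.71% lower in memory fins at 48 h. The memory effect on tgm2b at 48 h also differed from that at 0 h, by -1.19 ± 0.24 (adjusted p = 0.0103).

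Matrix processing enzymes gave 9 tested genes of 27 listed. Between the arms 0 of these were called by limma at 0, 24 and 48 h, with 2, 1 and 1 at an unadjusted p under 0.05. Over all genes 5.95% were called in either direction at 0 h and 3.35% at 24 h, and 2.82% were higher and 2.71% lower at 48 h. At 12 h 1 was higher and 6 were lower in memory fins (median -0.57, against -0.05 over all genes), where 14.2% of all genes were higher and 23.4% lower. The collagen chaperone gene serpinh1b had the largest difference, -2.66 ± 0.37 (adjusted p = 1.51e-05). The collagen prolyl hydroxylase genes p4ha2 and p4ha1b were lower by 1.35 and 1.02 (log2 differences of -1.35 and -1.02), and the lysyl hydroxylase genes plod1a and plod3 by 0.80 and 0.57 (-0.80 and -0.57). The plasminogen activator gene plaua was the 1 that was higher in memory fins, by 0.94 ± 0.16 (adjusted p = 0.000163). Against 0 h serpinh1b rose by 3.05 at 12 h in memory fins and by 6.06 in control fins. By contrast, plaua was below 0 h in both arms at 12 h (-1.85 in memory and -3.35 in control fins), so its higher memory signal was a smaller fall. The lysyl oxidase gene loxa fell as well (-4.55 in memory and -4.75 in control fins). On these 12 h arrays the fibroblast and connective tissue markers averaged 8.83 to 9.23 in memory and 9.22 to 9.48 in control fins, and their part in the enzyme differences was not tested.

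Likeness to each gene was measured by the Pearson correlation of 8 group means, over 3668 genes whose means spanned at least 1 log2 unit. It is given as a description, since all genes were read on the same arrays and share times and scaling. The closest 4 were eny2, gcsha, fibpa and mrps30 for tncb (r of 0.996 to 0.999), krt93, afg1la, tsr2 and jac4 for fn1a (0.992 to 0.995), and eif4e2rs1, mrps34, rab28 and mrpl43 for fn1b (0.991 to 0.994). For sparc they were pdgfrl, mmp2, inhbb and wipi1 (0.991 to 0.994). The CCN genes had less close company, with pdcd4b, carf, btg2 and fosab for ccn1 (0.868 to 0.937) and plp2a, nr4a2b, erap1b and trac for ccn2a (0.964 to 0.977). Among the 6 genes themselves the correlation was 0.954 between fn1a and fn1b, 0.877 between tncb and fn1b, and 0.487 between ccn1 and ccn2a. It was 0.559 between ccn2a and sparc, so ccn2a stood closer to sparc than to ccn1. Strong negative values were those of ccn2a with fn1a (-0.892), fn1b (-0.878) and tncb (-0.829), and of sparc with fn1a (-0.801).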

How the data were processed

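Total RNA (6 ug per the labels) was labelled with biotin and hybridised to 24 Affymetrix zebrafish arrays. The authors deposited 1 log2 signal per probe set and array. The submitters' processing notes name GCRMA and Partek, and versions are not given in the sources used here. GCRMA models background from the bases of each probe and then normalises and combines probes, so low signals are compressed and fold changes near the floor are uncertain. The number of arrays limits the precision.

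After 115 array controls were left out, 10140 probe sets passed the filter and 5362 did not. Symbols came from the platform annotation, updated by gene number for 10718 probe sets; 10795 probe sets carried 1 symbol, 135 several and 4572 none. limma 3.58.1 in R 4.3.3 fitted 1 mean per group to all 24 arrays, with eBayes and 18 comparisons. Each of 6451 genes was represented by its tested probe set with the highest mean. The 6 genes, the gene lists and the tests were chosen with earlier results of these data known. All probe sets of the 6 genes are named, with up to 5 called members of a related list by size, any CCN, tenascin or SPARC gene, and the 4 most alike genes of each. Named beyond this rule are plod3, yap1 and the genes whose deviations ran closest with those of ccn1. Alternatives were another filter, no filter, an intensity trend, median centring, quantile normalisation, a replicate block, only the groups compared, the mean of probe sets, a 2-fold rule and each array left out. The fit was tested on simulated data. Permutation tests used Python 3.11.15 with scipy 1.17.1. Sequences and coordinates are not used here.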

Additional observations from a re-analysis of the deposited data

Results flagged for a closer look

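For 2 of the 6 genes a test of the difference itself found that the memory effect at 48 h was not the one at 0 h. For ccn1 the memory minus control difference was -2.57 at 48 h and 0.45 at 0 h, and the change of -3.02 ± 0.57 passed limma's test (adjusted p = 0.007). For ccn2a it was -1.71 at 48 h and 0.17 at 0 h, and the change of -1.88 ± 0.45 passed as well (adjusted p = 0.0228), but not when any 1 of 4 arrays of 48 h was left out (adjusted p up to 0.067). No cause was tested.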

How the results depend on the processing

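No called change of the 6 genes turned its direction under any alternative. Of the recomputed differences 1750 kept their side of the threshold, 35 came to pass it and 51 no longer did. Beside 2 genes called between memory and control at 12 h, the count was 1 without a filter, with an intensity trend, with median centring, over only the groups compared, with the mean of probe sets, and with the 2-fold rule; ccn1 was the gene lost except under the 2-fold rule, where it was sparc. Beside 0 for the 12 h interaction it was 1 without a filter, with the trend and with quantile normalisation (sparc), 1 with centring (fn1a), and 2 with the stricter filter (ccn1 and sparc). Over only the groups compared the control step between 12 and 24 h had 0 called genes beside 3, and the 24 h interaction 1 beside 0. The 2-fold rule gave 0 and 1 for the control steps (3 and 5), 2 and 0 for the memory steps (4 and 3) and 1 for the average (3). The correlation of deviations of same-numbered samples, over all tested probe sets, ran from -0.225 to 0.37 over 28 group pairs. In 2 of them, control 12 h with control 24 h and with control 48 h, all 3 exceeded 0.1, and in no memory against control pair did they. With the replicate number as a block, 1 gene was called between the arms at 24 h (ccn1), 2 in the 12 h interaction (ccn1 and sparc) and 1 in the 24 h interaction (ccn1). With single arrays left out, the called genes ranged from 0 to 2 for the 12 h interaction, 0 to 1 at 24 h, 1 to 2 at 48 h, 1 to 2 between the arms at 12 h, 0 to 1 at 24 h, and 3 to 5 for the later control step. Unequal change of fn1b and fn1a was 0.48 and 0.46 at 24 and 48 h under quantile normalisation, and with arrays left out -0.33 to -0.19 at 12 h, 0.33 to 0.47 at 24 h and 0.24 to 0.38 at 48 h. Median centring shifts a comparison by at most 0.20, in memory 12 h against 0 h, by 0.13 in the memory step after 12 h and by 0.11 between the arms at 12 h. Over all probe sets, calls between the arms moved from 343 to between 43 and 530 at 24 h and from 577 to between 178 and 648 at 48 h when single arrays were left out, past 1.5 times without control 24 h replicates 1, 2 or 3 or memory 24 h replicates 2 or 3, and without control or memory 48 h replicate 2, control 48 h replicate 1 or memory 48 h replicate 3. With only the groups compared they were 81 for 560 at 0 h, 2192 for 3666 at 12 h and 198 for 343 at 24 h, 1459 for 2378 in the 12 h interaction, and 690 for 2041 in the control step after 12 h, which was 1327 without control 24 h replicate 3. The 48 h interaction ranged from 191 to 487 (444) and the 24 h one from 88 to 338 (254) with arrays left out. The 2-fold rule gave between 34 and 3140 calls per comparison, fewer than the adjusted p alone in each. The promoter search could not be run without sequences. Causes of these shifts were not tested, and with 3 arrays a group the precision of the CCN genes is low.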
